A study of Arabidopsis thaliana with 72 samples.

Results

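Cauline leaves, the small leaves borne on the flowering stem of *Arabidopsis thaliana*, were compared with rosetta leaves, the ground-level leaves spelled this way in the sample labels, for gene expression and for pseudouridine (Ψ) in poly(A)-tailed RNA. The comparison took every gene of the expression table with a mean of at least 1 TPM (transcript abundance scaled for gene length and library size) over the leaves, which left 19165 of 32833 genes, and every listed Ψ site with a fraction in both leaves, which left 8188 of 8512 sites. The study profiled 9 tissues in 72 libraries by BID-seq, in which bisulfite turns Ψ into an adduct that is read as a deletion. All plants were untreated wild-type Col-0 grown at 20 °C with 16 h light and 8 h night, first on plates and later in soil, and no genotype or treatment differed between the leaves. Rosetta leaves were collected at 30 days and cauline leaves after flowering, so leaf type, plant age and harvest cannot be told apart, and the time of day at harvest is not given in the sources used here. Cauline leaf had 2 input and 6 treated libraries and rosetta leaf had 1 input and 7 treated libraries. Expression was available as 2 columns for cauline leaf and 1 for rosetta leaf, and Ψ as a single fraction per leaf that the authors had pooled over libraries.

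Rosette leaves are made during the vegetative phase and feed the plant with sugars from the Calvin cycle, whereas cauline leaves form on the bolted stem, subtend the side branches and work as leaves of the reproductive phase. Ageing leaves take apart their chlorophyll and proteins and export the nitrogen, a program driven largely by NAC and WRKY transcription factors. Pseudouridine is an isomer of uridine made by pseudouridine synthases, long known in tRNA, rRNA and snRNA and also present in mRNA, where its fraction is the share of transcripts modified at a position.

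Gene expression differed broadly between the leaves. At an adjusted p below 0.05 and a difference of at least 1 on the log2(TPM + 1) scale, 4555 genes were higher in cauline leaf (23.8% of the genes tested) and 2779 were higher in rosetta leaf (14.5%), by limma with Benjamini-Hochberg adjustment. The median gene was 0.21 higher in cauline leaf on the log2 scale. After each column was centred on its median gene, 3516 genes were higher in cauline leaf (18.3%) and 3740 in rosetta leaf (19.5%), and the share of calls that were higher in cauline leaf went from 62.1% to 48.5%. All 3516 centred calls in cauline leaf were also calls without centring, as were all 2779 uncentred calls in rosetta leaf with it. The rosetta value is a single column, which the fit assumed to vary like the tissues with paired columns. The methods speak of biological replicates for mRNA capture but do not say whether the paired columns came from separate plants, so the p-values measure only the spread between these columns, which may be technical. In the gene lists that follow, the counts stand beside these shares of all genes tested and beside the median of 0.21, since no list was tested as a set.

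Across the 19165 genes each leaf correlated more with another tissue than with the other leaf. The correlation of log2(TPM + 1) was 0.772 between cauline and rosetta leaf, 0.876 between cauline leaf and stem, and 0.867 between rosetta leaf and seedling, and it was 0.995 between both cauline columns. These correlations are across genes, which are not independent replicates, and are given as a description. The median absolute difference on the log2 scale was 0.749 between the leaves and 0.0813 between the cauline columns. In the scatter of both leaves the called genes lay on both sides of the diagonal over the whole range of expression.

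**Figure D1:**
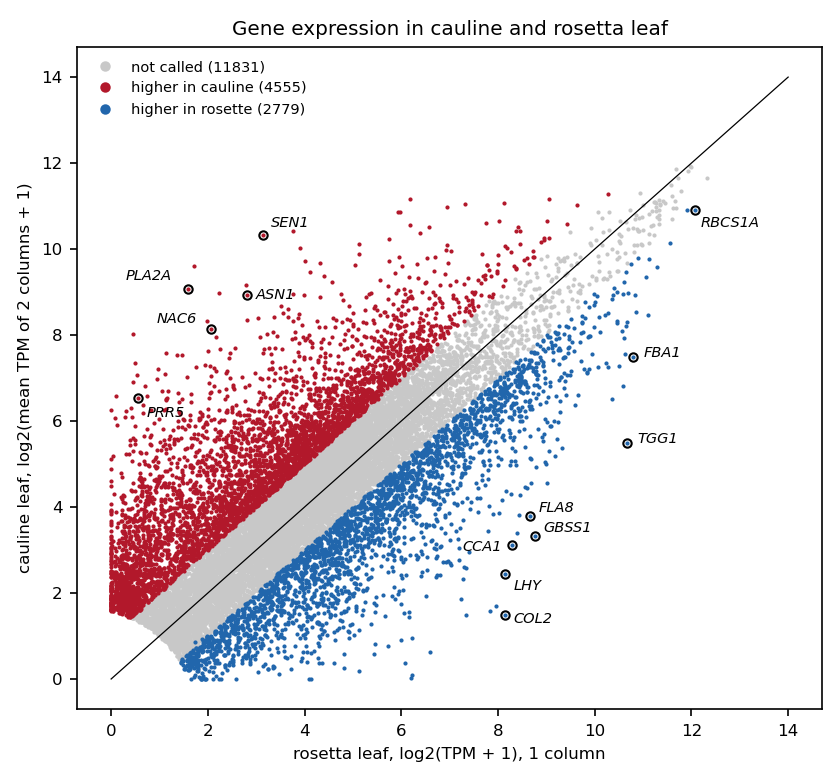
Expression of 19165 genes in cauline leaf (y axis, log2 of the mean TPM of 2 columns plus 1) against rosetta leaf (x axis, log2 of the TPM of 1 column plus 1). Red points are the 4555 genes called higher in cauline leaf, blue points the 2779 called higher in rosetta leaf and grey points the 11831 not called. Circles mark genes described in the text, and the line is equality.

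Photosystem transcripts were abundant in both leaves. The nuclear photosystem and light harvesting list of 41 genes, all tested, summed to 70074 and 74201 TPM in the cauline columns and to 99347 TPM in rosetta leaf. No member was called higher in cauline leaf, 3 were called higher in rosetta leaf and 38 were not called, with a median difference of -0.38 on the log2 scale against 0.21 for all genes. After centring 8 were called higher in rosetta leaf. The called members without centring were LHCB2.3, LHCB1.2 and NPQ4. LHCB2.3, an antenna protein of photosystem II, had 305 and 322 TPM in cauline leaf and 1619 TPM in rosetta leaf (log2 difference -2.36, SE 0.08, limma adjusted p = 4.1e-11). NPQ4, the PsbS protein that turns on heat dissipation of excess light, had 348 and 353 against 1177 TPM (log2 difference -1.74, SE 0.19, limma adjusted p = 4.1e-06). Both cauline columns were below the rosetta column for each.

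Rubisco and Calvin cycle genes were higher in rosetta leaf. Of 19 listed genes, all tested, 13 were called higher in rosetta leaf, none in cauline leaf and 6 in neither, with a median log2 difference of -1.28. FBA1, a plastid fructose-bisphosphate aldolase, had 179 TPM in each cauline column and 1782 TPM in rosetta leaf (log2 difference -3.31, SE 0.12, limma adjusted p = 1.3e-10). SBPASE, the sedoheptulose-bisphosphatase that helps to regenerate the CO2 acceptor, had 162 and 163 against 1198 TPM (log2 difference -2.87, SE 0.19, limma adjusted p = 3.3e-08). The small regulatory protein genes CP12-1, at 1344 and 1456 against 1249 TPM, and CP12-2, at 918 and 960 against 766 TPM, were not called and were the only members with cauline values above the rosetta value. The leaf marker genes, which overlap these lists, gave 4 of 6 higher in rosetta leaf, among them CA1, a chloroplast carbonic anhydrase, with 360 and 371 against 1237 TPM (log2 difference -1.76, SE 0.19, limma adjusted p = 2.9e-06), and RBCS1A, a Rubisco small subunit, with 1894 and 1958 against 4298 TPM (log2 difference -1.16, SE 0.25, limma adjusted p = 0.0012). All 6 leaf markers were above 300 TPM in every leaf column. These transcripts were not particular to leaf, since cauline leaf ranked 7 of the 9 tissues for RBCS1A and 6 for CA1, below stem at 2087 and 481 TPM, while rosetta leaf ranked first for both.

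Genes of leaf senescence were mostly higher in cauline leaf. Of 26 listed genes 25 were tested, and 21 of these were called higher in cauline leaf, none in rosetta leaf and 4 not called, with a median log2 difference of 2.76. SEN1 (AT4G35770, chr4:16944878-16946266 in TAIR10.1), a gene induced by darkness and ageing, had 1233 and 1337 TPM in cauline leaf and 7.78 TPM in rosetta leaf (log2 difference 7.19, SE 0.16, limma adjusted p = 1.9e-12). Among the 9 tissues SEN1 was highest in cauline leaf, followed by shoot at 409 TPM, and rosetta leaf ranked eighth. ASN1, an asparagine synthetase that packs nitrogen for export, had 484 and 494 against 6.01 TPM (log2 difference 6.13, SE 0.11, limma adjusted p = 3.3e-13), with 840 TPM in seed and 448 TPM in flower. NAC6, better known as ORE1, a NAC regulator that promotes senescence, had 282 TPM in both cauline columns and 3.17 TPM in rosetta leaf (log2 difference 6.08, SE 0.12, limma adjusted p = 8.1e-13), and no other tissue exceeded 72.0 TPM.

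The enzymes of chlorophyll breakdown were among the senescence genes called, a group singled out after their values were seen. NYC1, a chlorophyll b reductase, had 757 and 792 TPM in cauline leaf and 64.1 TPM in rosetta leaf, and NYE1, the magnesium dechelatase also called SGR1, had 164 and 162 against 26.2 TPM. PPH, which removes the phytol tail, had 470 and 471 against 37.3 TPM, and PAO, which opens the ring, had 439 and 445 against 64.5 TPM. Both cauline columns were above the rosetta column in all 4. SAG12, a cysteine protease that marks late senescence, had 1.41 and 2.45 against 1.08 TPM and was not called, and the sugar transporter SWEET15 (SAG29) had 1.72 and 1.84 against 1.33 TPM and was not called either. BFN1, a nuclease of late senescence, was below the filter at 1.12 and 0.663 against 1.06 TPM.

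Jasmonate genes were higher in cauline leaf almost throughout, with 22 of 23 tested members called higher in cauline leaf, none in rosetta leaf, and a median log2 difference of 2.56. The member not called was AOS, an enzyme of jasmonate synthesis, at 265 and 270 against 345 TPM. ORA59, an ethylene and jasmonate responsive transcription factor, had 82.8 and 82.1 against 0.575 TPM (log2 difference 5.73, SE 0.18, limma adjusted p = 3.0e-11), and PR4, a hevein-like defence protein, had 473 and 509 against 14.8 TPM (log2 difference 4.96, SE 0.09, limma adjusted p = 4.6e-13). The JAZ repressors on the list, which jasmonate degrades and whose transcription it induces, were all called higher in cauline leaf, for example JAZ1 with 112 and 101 against 4.83 TPM.

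Salicylic acid and systemic defence genes followed the same direction in 18 of 22 tested members, with none higher in rosetta leaf and a median log2 difference of 1.99. GRX480, a glutaredoxin induced by salicylic acid, had 33.4 and 34.1 against 0.885 TPM (log2 difference 4.21, SE 0.17, limma adjusted p = 2.7e-10). PR1, the standard marker of the salicylic acid response, had 238 and 244 against 12.3 TPM (log2 difference 4.18, SE 0.26, limma adjusted p = 1.9e-08), and its mean in the other 7 tissues was at most 2.94 TPM, so both leaves were above every other tissue. After centring, 15 of the 22 were still called higher in cauline leaf. PCC1, a pathogen-induced and clock-controlled gene, was the member furthest in the other direction, with 181 and 182 against 302 TPM, and was not called.

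Genes of cold, drought and abscisic acid response were higher in cauline leaf in 15 of 21 members, with 1 higher in rosetta leaf and a median log2 difference of 1.69. LTI30, a dehydrin, had 63.4 and 61.2 against 2.90 TPM (log2 difference 4.02, SE 0.20, limma adjusted p = 2.7e-09), and HAI2, a protein phosphatase induced by abscisic acid, had 27.7 and 27.1 against 1.16 TPM (log2 difference 3.71, SE 0.10, limma adjusted p = 7.5e-12). RD22, a dehydration-induced BURP protein gene, was the exception with 425 and 440 against 1023 TPM (log2 difference -1.24, SE 0.19, limma adjusted p = 6.9e-05). RD29B and RAB18, also inducible by abscisic acid, were not called, at 2.3 and 1.85 against 1.03 TPM and at 95.1 and 99.2 against 85.8 TPM.

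**Figure D2:**
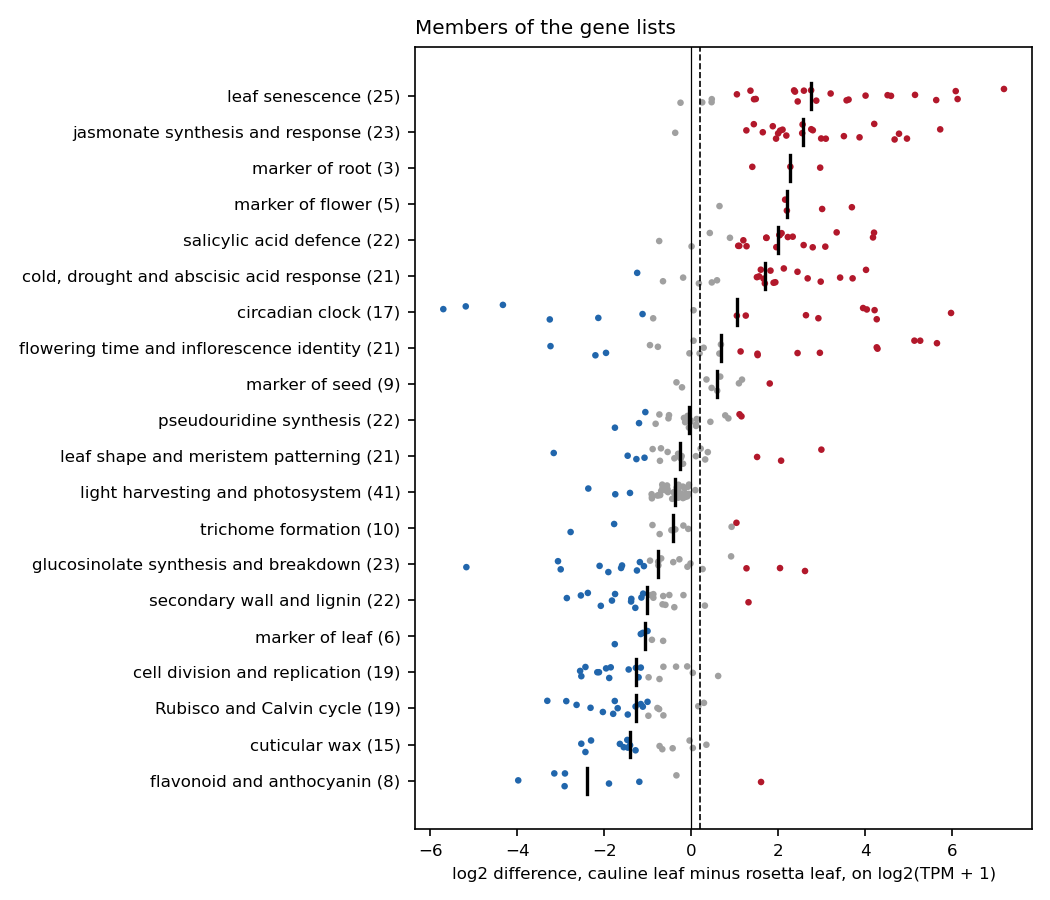
Difference in log2(TPM + 1) between cauline and rosetta leaf (x axis) for each tested member of the gene lists (rows, tested members in brackets). Red, blue and grey points are members called higher in cauline leaf, called higher in rosetta leaf and not called, the thick bar is the list's median and the dashed line is the median of all genes at 0.21; of the lists drawn, leaf senescence has the highest median, 2.76, and flavonoid and anthocyanin the lowest, -2.40, with the clock list drawn whole and not by time of day.

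The clock genes split by the time of day at which they are known to peak. Of 8 morning genes 5 were called higher in rosetta leaf and 1 in cauline leaf, with a median log2 difference of -2.69, and of 8 genes that peak from noon to evening all 8 were called higher in cauline leaf, with a median of 4.00. LHY, a morning MYB repressor at the core of the clock, had 4.46 and 4.49 TPM in cauline leaf and 284 TPM in rosetta leaf (log2 difference -5.70, SE 0.07, limma adjusted p = 2.9e-14). CCA1 (chr2:19245591-19248915 in TAIR10.1), its close relative, had 8.28 and 7.07 against 313 TPM (log2 difference -5.18, SE 0.09, limma adjusted p = 2.5e-13). PRR5, a pseudo-response regulator that represses both, had 91.9 and 90.6 against 0.465 TPM (log2 difference 5.98, SE 0.08, limma adjusted p = 2.8e-14), and GI, a protein that stabilises the evening program, had 69.9 and 70.7 against 2.70 TPM (log2 difference 4.27, SE 0.07, limma adjusted p = 1.0e-13). No cauline column overlapped the rosetta value for these 4 genes. PRR9, an early morning gene, had 34.0 and 29.9 against 30.7 TPM and was not called, and PRR7, which peaks later in the morning, had 99.0 and 97.6 against 40.6 TPM and was the 1 morning gene called higher in cauline leaf. After centring, 6 morning genes were called higher in rosetta leaf and 7 of the 8 later genes in cauline leaf, and PRR7 was no longer called (0.99).

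Across the 9 tissues rosetta leaf was highest or lowest for several of these genes, but not for PRR9, for which it ranked 2, or PRR7, for which it ranked 6. CCA1 was highest in rosetta leaf at 313 TPM, followed by root at 134 and seedling at 133 TPM, and LHY was also highest there, while cauline leaf ranked seventh for both, at means of 7.68 and 4.48 TPM. RVE8, a morning activator of evening genes chosen here after its values were seen, had 106 TPM in rosetta leaf, the highest level, and 4.33 TPM in cauline leaf. PRR5 and GI had their highest level in cauline leaf and their lowest in rosetta leaf. TOC1, an evening repressor, was lowest in rosetta leaf at 2.93 TPM and was 69.8 TPM in stem, 69.4 TPM in flower and 59.9 TPM in cauline leaf. Levels of these genes swing over the day, and what part the hour of collection had in any of these differences was not tested.

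**Figure D3:**
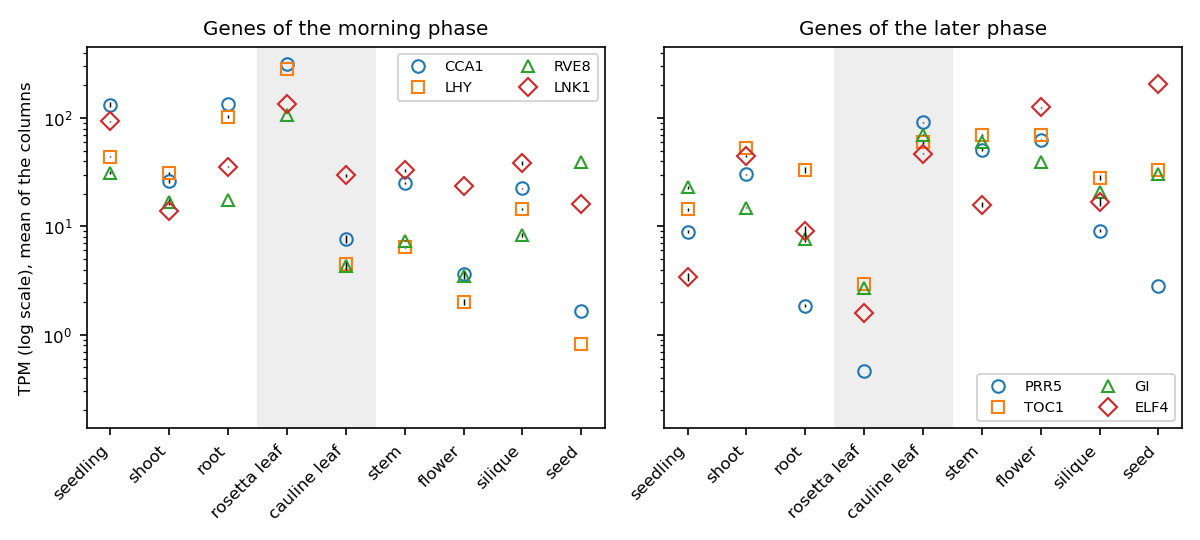
Mean TPM of clock genes (y axis, log scale) in the 9 tissues (x axis), with morning genes on the left and later genes on the right; thin bars span the columns of a tissue and the grey band marks the leaves. In rosetta leaf, CCA1 and LHY were at 313 and 284 TPM and PRR5 and GI at 0.465 and 2.70 TPM, and in cauline leaf the order was the opposite, with means of 7.68 and 4.48 TPM for the first pair and 91.3 and 70.3 TPM for the second.

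Flowering genes differed in both directions. Of 21 tested genes 8 were not called, 10 were higher in cauline leaf and 3 were higher in rosetta leaf, or 5 after centring, with a median log2 difference of 0.69. FKF1, a blue light receptor of the day length pathway whose transcript also follows the clock, had 66.1 and 67.9 against 0.352 TPM (log2 difference 5.65, SE 0.09, limma adjusted p = 1.4e-13). FUL, a MADS-box factor of the reproductive phase, had 98.6 and 101 against 1.62 TPM (log2 difference 5.27, SE 0.17, limma adjusted p = 4.3e-11). FT, the mobile floral signal, was singled out after its values were seen and had 109 and 111 against 4.69 TPM (log2 difference 4.29), and SOC1, a target of FT, had 242 and 229 against 42.4 TPM (log2 difference 2.45). The rosetta column was below both cauline columns for all 4. In the other direction AGL24, a MADS-box promoter of flowering, had 1.63 and 2.15 against 26.1 TPM (log2 difference -3.23, SE 0.22, limma adjusted p = 5.1e-08). FLC, the repressor that vernalization silences, had 0.233 and 0.0671 against 4.28 TPM (log2 difference -2.20, SE 0.16, limma adjusted p = 6.9e-08). The floral meristem genes LFY, AP1 and CAL stayed below 0.4 TPM in every leaf column.

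Markers of other organs showed no common direction. Most tested flower and root markers were higher in cauline leaf, and most seed markers were not called. The secondary wall and lignin list, taken as the markers of stem, went the other way, with 11 of 22 tested members higher in rosetta leaf and 1 in cauline leaf. Of 10 flower markers 5 were tested and 4 were called higher in cauline leaf, and the list summed to 52 and 47 TPM in cauline leaf against 5 TPM in rosetta leaf. SEP1, a floral MADS-box factor, had 20.2 and 18.1 against 0.556 TPM (log2 difference 3.70, SE 0.19, limma adjusted p = 3.5e-09), and VGD1, a pectin methylesterase of pollen, had 13.2 and 12.5 against 0.714 TPM (log2 difference 3.01, SE 0.14, limma adjusted p = 1.1e-09). Among the other tissues SEP1 was at 80.0 TPM in flower and 175 TPM in silique. VGD1 was at 694 TPM in flower, 19.8 TPM in seed and 17.3 TPM in stem. The defining floral organ genes AP3, AG and STK were below 0.8 TPM in every leaf column. Root markers gave 3 of 3 tested members higher in cauline leaf, with 130 and 112 against 15 TPM in sum over 6 genes, most of it from PYK10, a beta-glucosidase of endoplasmic reticulum bodies (115 and 103 against 13.1 TPM, log2 difference 2.97, SE 0.18, limma adjusted p = 1.8e-08). PYK10 was not particular to root, with 2024 TPM in root, 1936 TPM in seedling and 673 TPM in shoot. CASP1, a Casparian strip protein, had 10.1 and 5.49 against 0.748 TPM (log2 difference 2.28, SE 0.26, limma adjusted p = 4.5e-06). CASP1 was at 65.9 TPM in root and 1.52 TPM in shoot. The iron transporter IRT1 of the root surface stayed below 0.4 TPM. Of 9 seed markers 1 was called, the storage protein gene SESA2 at 4.90 and 7.03 against 0.967 TPM (log2 difference 1.81, SE 0.52, limma adjusted p = 0.0067), with sums of 82 and 93 against 63 TPM. The part that other tissue in the samples had in these values was not tested, and in bulk RNA fewer cells of a type and less RNA per cell cannot be told apart.

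Genes of cell division and replication were low in both leaves and in part higher in rosetta leaf. Of 25 genes of cell division and DNA replication 19 were tested, and 12 of these were called higher in rosetta leaf and none in cauline leaf, with a median log2 difference of -1.27. PCNA1, the sliding clamp of DNA replication, had 0.895 and 1.03 against 10.5 TPM (log2 difference -2.55, SE 0.17, limma adjusted p = 3.3e-08), and MCM3, a subunit of the replicative helicase, had 0.193 and 0.573 against 6.89 TPM (log2 difference -2.53, SE 0.18, limma adjusted p = 6.1e-08). The listed MCM2 to MCM7 subunits were all called higher in rosetta leaf, each below 1.1 TPM in both cauline columns. These are low levels, and with a minimum mean of 5 TPM only 2 members of the list were still called.

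Cuticular wax genes gave 9 of 15 tested members higher in rosetta leaf, none in cauline leaf and a median log2 difference of -1.40. CER1, which makes wax alkanes, had 17.3 and 16.0 against 101 TPM (log2 difference -2.53, SE 0.11, limma adjusted p = 8.0e-10), and LTPG1, a lipid transfer protein that exports wax, had 79.2 and 73.7 against 416 TPM (log2 difference -2.43, SE 0.08, limma adjusted p = 2.9e-11). CER6, the condensing enzyme for very long chains, had 423 and 419 against 410 TPM and was not called. Of the secondary wall and lignin list 11 of 22 tested members were higher in rosetta leaf and 1 was higher in cauline leaf, with a median of -1.02. The split ran through a pair of cinnamyl alcohol dehydrogenases, the enzymes of the last step to lignin monomers. CAD4 had 29.3 and 31.7 against 227 TPM (log2 difference -2.86, SE 0.07, limma adjusted p = 5.4e-12), and CAD5 had 75.0 and 75.6 against 29.6 TPM (log2 difference 1.32, SE 0.06, limma adjusted p = 8.2e-10). 4CL1, which activates cinnamic acids, had 26.3 and 27.1 against 159 TPM (log2 difference -2.54, SE 0.06, limma adjusted p = 2.9e-12).

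Flavonoid genes were largely higher in rosetta leaf, with 6 of 8 tested members, against 1 higher in cauline leaf and a median of -2.40. TT4, the chalcone synthase that opens the pathway, had 21.0 and 16.7 against 309 TPM (log2 difference -3.98, SE 0.11, limma adjusted p = 1.5e-11), and UGT78D1, a flavonol rhamnosyltransferase, had 9.36 and 8.35 against 86.2 TPM (log2 difference -3.15, SE 0.08, limma adjusted p = 4.5e-12). MYB75, the activator of anthocyanin genes, had 3.77 and 3.76 against 0.563 TPM (log2 difference 1.61, SE 0.25, limma adjusted p = 7.0e-05), while the anthocyanin enzyme genes TT3 and TT18 were below 0.7 TPM in every leaf column.

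Of 23 glucosinolate genes 10 were called higher in rosetta leaf, 3 in cauline leaf and 10 were not called, with a median of -0.76. TGG1, the main myrosinase, which hydrolyses glucosinolates on wounding, had 45.3 and 43.1 against 1625 TPM (log2 difference -5.17, SE 0.04, limma adjusted p = 1.5e-15), and TGG2, the other leaf myrosinase, had 72.9 and 73.6 against 619 TPM (log2 difference -3.06, SE 0.05, limma adjusted p = 2.0e-13). Rosetta leaf had the highest TGG1 level of the 9 tissues and cauline leaf the lowest, below root at 55.9 TPM. MYB28 and MYB29, activators of aliphatic glucosinolate genes, were also higher in rosetta leaf, at 17.2 and 14.3 against 70.8 TPM and at 3.84 and 4.52 against 40.3 TPM. MYB51, an activator of indole glucosinolate genes, had 53.4 and 47.0 against 7.33 TPM (log2 difference 2.62, SE 0.09, limma adjusted p = 8.0e-11), and GTR2, a glucosinolate importer of the phloem, had 123 and 118 against 28.6 TPM (log2 difference 2.04, SE 0.05, limma adjusted p = 2.3e-12).

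Regulators of leaf shape showed no common direction. Of 21 tested genes 14 were not called, 3 were higher in cauline leaf and 4 were higher in rosetta leaf, with a median of -0.25. GRF3 and GRF1, growth-regulating factors of leaf cell number, were higher in cauline leaf, with 10.8 and 9.05 against 0.368 TPM (log2 difference 2.99, SE 0.12, limma adjusted p = 3.5e-10) and with 9.97 and 9.63 against 1.57 TPM (log2 difference 2.07, SE 0.10, limma adjusted p = 1.1e-09). ATH1, a homeobox gene of the vegetative shoot, had 0.639 and 0.184 against 11.5 TPM (log2 difference -3.16, SE 0.18, limma adjusted p = 6.2e-09). A related pair of genes for the upper leaf side went in opposite directions, PHB with 8.79 and 7.51 against 24.1 TPM (log2 difference -1.46, SE 0.10, limma adjusted p = 5.7e-08) and PHV with 47.6 and 45.8 against 15.7 TPM, the latter chosen after its values were seen. The class I KNOX genes STM and KNAT1, active in meristems, were below 0.7 TPM in all leaf columns.

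Of 14 trichome genes 10 were tested, 2 were higher in rosetta leaf and 1 was higher in cauline leaf, with a median of -0.41. TRY, a single-repeat MYB inhibitor of hair cell fate, had 3.23 and 2.1 against 23.7 TPM (log2 difference -2.77, SE 0.23, limma adjusted p = 2.8e-07), and MYB106, a regulator of hair branching, had 0 and 0.0653 against 2.52 TPM (log2 difference -1.77, SE 0.21, limma adjusted p = 8.4e-06). CPC, an inhibitor related to TRY, had 3.75 and 2.90 against 1.09 TPM (log2 difference 1.04, SE 0.17, limma adjusted p = 0.00014), a call that was lost after centring (0.78) and without cauline leaf replicate 1 (0.90).

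The genes with the largest differences came from several of these groups and from others. PLA2A, a patatin-like lipase induced by stress, had 525 and 557 against 2.02 TPM, the largest difference toward cauline leaf among nuclear genes with a symbol (log2 difference 7.49, SE 0.23, limma adjusted p = 2.3e-11). BCAT-2, a plastid aminotransferase of branched-chain amino acids, had 160 and 163 against 0.416 TPM (log2 difference 6.84, SE 0.06, limma adjusted p = 3.1e-15), and BGAL4, a beta-galactosidase, had 496 and 505 against 3.68 TPM (log2 difference 6.74, SE 0.04, limma adjusted p = 5.2e-16). NAC019, a stress-responsive NAC factor, had 194 and 185 against 1.18 TPM (log2 difference 6.45, SE 0.14, limma adjusted p = 1.2e-12). PLA2A was highest in cauline leaf of the 9 tissues. BCAT-2 and BGAL4 were higher in stem, at 452 and 969 TPM, and NAC019 was higher in flower, at 228 TPM. Rosetta leaf was the lowest tissue for BCAT-2 and NAC019. The remaining genes of the 12 toward cauline leaf, besides SEN1, ASN1, NAC6 and PRR5, were GLYI7, EXL4, MEE14 and ST2A, with log2 differences of 5.89 to 6.50. GLYI7 overlaps a gene on the other strand, AT1G80165, which had 80.4 and 69.4 against 0 TPM, and whether reads were counted by strand is not given in the sources used here.

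Toward rosetta leaf the largest difference under the same rule was in COL2, a CONSTANS-like B-box gene, at 1.87 and 1.75 against 282 TPM (log2 difference -6.66, SE 0.10, limma adjusted p = 7.7e-14). COL2 was highest in rosetta leaf of the 9 tissues and overlaps neighbours on the other strand. GBSS1, which makes the amylose of starch and whose transcript follows the clock, had 9.69 and 8.31 against 432 TPM (log2 difference -5.44, SE 0.13, limma adjusted p = 3.4e-12), and FLA8, a fasciclin-like arabinogalactan protein of the cell surface, had 12.5 and 13.1 against 405 TPM (log2 difference -4.88, SE 0.05, limma adjusted p = 3.4e-15). PPT2, a plastid phosphoenolpyruvate transporter, had 4.50 and 3.55 against 155 TPM (log2 difference -4.96, SE 0.15, limma adjusted p = 2.6e-11). EXPB1, a beta-expansin that loosens walls, had 0.900 and 0.498 against 52.0 TPM (log2 difference -4.97, SE 0.22, limma adjusted p = 8.9e-10), and ATCSLA09, a mannan synthase, had 5.83 and 4.34 against 157 TPM (log2 difference -4.71, SE 0.10, limma adjusted p = 1.7e-12). The others, besides LHY, CCA1 and TGG1, were BBX30, scpl10 and the microRNA gene MIR3932b, and the last overlaps a gene of the same strand, AT4G13575 at 1.83 and 1.81 against 162 TPM, and how reads were assigned between them is not given in the sources used here.

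Genes of pseudouridine synthesis differed little as a list. Of 22 tested genes 2 were called higher in cauline leaf, 3 were higher in rosetta leaf and 17 were not called, with a median of -0.05. CBF5, the catalytic subunit of the H/ACA particles that modify rRNA and snRNA, known as dyskerin in humans, had 11.8 and 10.8 against 40.3 TPM (log2 difference -1.75, SE 0.08, limma adjusted p = 6.6e-10). The synthase family gene AT4G21770 had 5.85 and 5.31 against 14.1 TPM (log2 difference -1.20, SE 0.13, limma adjusted p = 4.3e-06). AT5G51140 had 51.6 and 47.8 against 21.7 TPM (log2 difference 1.16, SE 0.13, limma adjusted p = 5.5e-06) and AT1G78910 had 9.51 and 8.62 against 3.65 TPM (log2 difference 1.11, SE 0.12, limma adjusted p = 2.3e-06), and both of these calls were lost after centring, at 0.90 and 0.85. SVR1, a chloroplast synthase, had 25.4 and 22.2 against 26.2 TPM and was not called.

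For Ψ itself, a site was termed called in a leaf when it had passed the authors' P value filter there. Of the 8512 sites 1601 were called in cauline leaf and 1674 in rosetta leaf, with 682 called in both, which was 42.6% of the cauline calls and 40.7% of the rosetta calls. A further 919 sites were called in cauline leaf only and 992 in rosetta leaf only. The median fraction of called sites was 0.171 in cauline leaf and 0.149 in rosetta leaf. With 1 pooled fraction per leaf and unknown depth there is no error for any site, so the differences below are a description with no test. Sites that share a transcript are not independent of each other.

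At the 2578 sites with both values that were called in at least 1 leaf, 412 fractions were higher in cauline leaf by 0.1 or more (16.0%) and 259 were higher in rosetta leaf (10.0%), with a median difference of 0.0104. Of the 412, 334 were called in cauline leaf only, and of the 259, 222 were called in rosetta leaf only. Most of both counts thus came from sites that passed the filter only in the leaf where the fraction was higher. At the 682 sites called in both leaves the fractions were close. The Spearman correlation over these sites was 0.958, the median absolute difference was 0.0234, and 502 sites differed by less than 0.05. Of the 682, 34 were higher by 0.1 or more in cauline leaf and 24 in rosetta leaf, and 442 were higher in cauline leaf by any amount against 237 in rosetta leaf, a median difference of 0.0112. With stem the same sites correlated at 0.927 in cauline leaf and 0.936 in rosetta leaf, with seedling at 0.933 and 0.928, and with seed at 0.642 and 0.650.

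A call in only 1 leaf did not mean a fraction of 0 in the other. Sites called in neither leaf also had median fractions of 0.061 in cauline leaf and 0.055 in rosetta leaf. With unknown depth, a fraction without a call cannot be told apart from background. Of the 919 sites called in cauline leaf only, 383 had a fraction of 0.1 or more in rosetta leaf and 143 were listed at 0 there. Of the 992 called in rosetta leaf only, 457 had at least 0.1 in cauline leaf and 126 were listed at 0. The median difference, cauline minus rosetta, was 0.0680 for the first set and -0.0291 for the second. The filter and the fractions came from the same libraries, so these directions are part of how the sets were made. The filter did not follow the fraction alone, since 10 sites called in cauline leaf and 10 called in rosetta leaf were listed at 0 in that leaf.

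**Figure D4:**
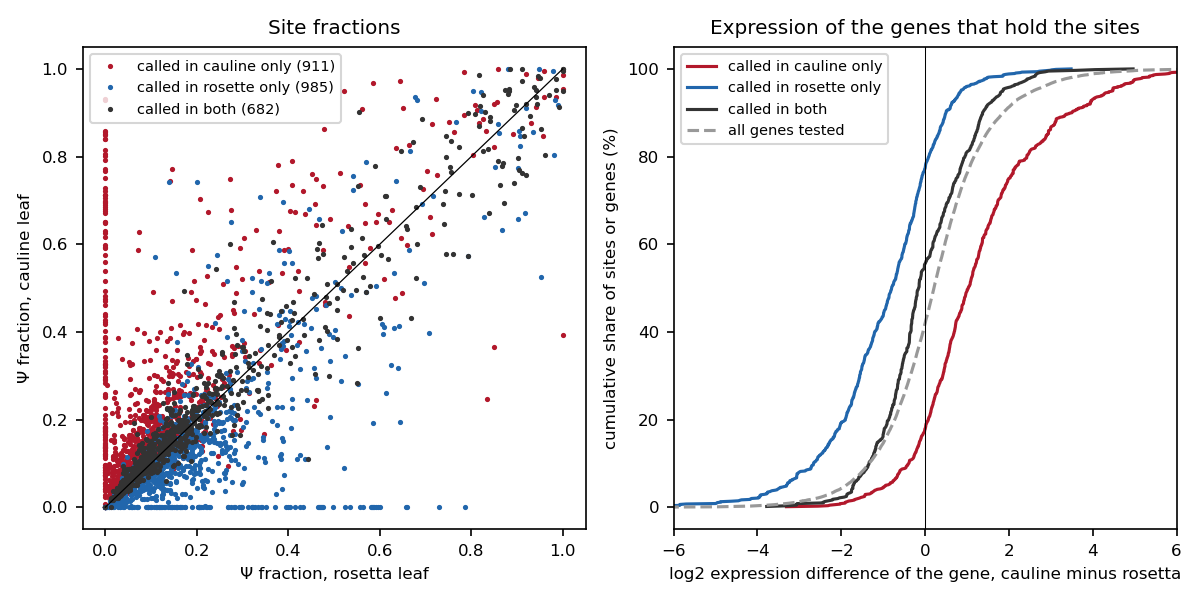
Ψ fraction in cauline leaf (y axis) against rosetta leaf (x axis) for sites with both values that were called in at least 1 leaf, coloured by the leaf in which the site was called (left), and cumulative share of these sites, or of all genes tested (dashed), by the difference in log2(TPM + 1) of their gene (right). On the left the 682 sites called in both lie along the line of equality (Spearman 0.958), and those called in 1 leaf spread around it and along the axes; on the right the curves of sites called in 1 leaf lie on either side of all genes, with medians of 1.06 and -0.80.

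Sites of the mitochondrial genome were left out of the rankings that follow. Of the 7 called in both leaves, 1 was higher by at least 0.1 in cauline leaf and 1 in rosetta leaf. The remaining sites called in both leaves with the largest gain in cauline leaf came from chloroplast tRNA and from nuclear genes for chloroplast proteins. Their sequences are shown because they carry the largest differences. Each runs 5′ to 3′ in the sense of the transcript over 21 nucleotides of TAIR10.1, with T for U, and the capital T marks the modified position.
trnfM (chrPt:36712-36732, minus strand): ggtcacgggtTcaaatcctgt
ArthCt100 (chrPt:46221-46241, minus strand): ggtcatcggtTcgattccgat
EGY2 (chr5:1726355-1726375, minus strand): caaagagagcTctgcagatga
AT2G21860 (chr2:9319753-9319773, minus strand): aattgattgcTctcgtcggaa
PnsL1 (chr2:16477562-16477582, plus strand): ctctcatagtTggagcaaatg
trnH (chrPt:12-32, minus strand): catcgcgggtTcaattcccgt
In trnfM, the chloroplast initiator methionine tRNA, the fraction was 0.902 in cauline leaf and 0.554 in rosetta leaf, and it was 0.496 to 0.856 in the other 7 tissues. ArthCt100, a chloroplast threonine tRNA, had 0.601 and 0.272, with 0 to 0.619 in the other 7 tissues. The histidine tRNA trnH had 0.885 and 0.692, with 0.534 to 0.807 in the other tissues. All 3 tRNA sites lie in the letters GTTCNA, the T-arm loop that tRNAs share, in which the second T is the modified position. EGY2, a membrane protease of the chloroplast, had 0.493 and 0.171 at a site whose gene had 25.0 and 22.8 against 79.4 TPM. AT2G21860, described as related to violaxanthin de-epoxidase, had 0.544 and 0.241. PnsL1, a subunit of the chloroplast NDH complex, had 0.604 and 0.367, with 0 to 0.639 in the other 7 tissues. Both AT2G21860 and PnsL1 were also higher in rosetta leaf in expression (log2 differences of -2.20 and -1.53). In trnfM, trnH, EGY2 and AT2G21860 the cauline fraction was above every other tissue, and in ArthCt100 and PnsL1 it was not.

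Outside the mitochondrial genome, the sites called in both leaves with the largest gain in rosetta leaf were of mixed origin. They are shown for the same reason, written in the same way.
TMT1 (chr1:7245263-7245283, minus strand): ctcagctcgaTcggactagtt
AT3G16230 (chr3:5503261-5503281, plus strand): ttgctgtggtTcaataccatt
psbA (chrPt:536-556, minus strand): ctaaatggttTcaatttcaac
trnL (chrPt:114321-114341, plus strand): gcatctcggtTcgagtccgag
AT3G11690 (chr3:3695666-3695686, plus strand): gacggcgagtTgcgccgccgt
AT5G39020 (chr5:15618709-15618729, plus strand): taggcatcgcTcggggattgg
TMT1, a sugar carrier of the vacuole membrane, had a fraction of 0.110 in cauline leaf and 0.443 in rosetta leaf, and its expression was higher in cauline leaf, at 170 and 162 against 12.7 TPM. In the other 7 tissues the fraction of this site was at most 0.137. AT3G16230 had 0.284 and 0.551, with 0.299 to 0.925 in the other 7 tissues, and its site also lies in GTTCNA. The psbA site, in the transcript of the D1 protein of photosystem II, had 0.432 and 0.669, and trnL, a chloroplast leucine tRNA, had 0.572 and 0.792. AT3G11690 had 0.298 and 0.488, and AT5G39020 had 0.364 and 0.552. In psbA, trnL, AT3G11690 and AT5G39020 the rosetta fraction was above every other tissue.

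Outside the mitochondrial genome, the sites called in both leaves with the highest mean fraction were in tRNA, where both leaves were near full modification. They are shown as the upper end of the scale.
tRNA in an intron of PRL (chr4:901178-901198, plus strand): ggttgtagtaTagcggttagt
trnK (chrPt:1725-1745, minus strand): agttccgggtTcgagtcccgg
AT1G07760 (chr1:2406883-2406903, minus strand): ggctgtagttTagtggtaaga
trnI (chrPt:103573-103593, plus strand): ggtctctggtTcaaatccagg
The fractions in cauline and rosetta leaf were both 1.00 in the first and in trnK, 0.995 and 1.00 in AT1G07760, a histidine tRNA gene, and 0.977 and 0.985 in trnI. Chloroplast tRNAs thus held sites with large differences and sites with nearly none. Of 41 tRNA sites called in both leaves, 8 were higher by at least 0.1 in cauline leaf and 3 in rosetta leaf, with a median difference of 0.0297. The 26 chloroplast tRNA sites had a median difference of 0.0526 and the 15 nuclear ones 0.0199.

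The sequence around called sites was much alike in both leaves. GTTCNA, which TRUB1-type enzymes such as yeast Pus4 modify, was read on the strand of the site only and held 230 of all 8512 listed sites (2.70%), 41 of the 682 sites called in both leaves (6.01%), 16 of the 919 called in cauline leaf only (1.74%) and 17 of the 992 called in rosetta leaf only (1.71%). Of the 41 tRNA sites called in both, 21 had it (51.2%). The letters TNTAA or TNTAG with the modified position at the second T, which Pus7 modifies in yeast, held 17 of the 682 (2.49%), 24 of the 919 (2.61%) and 33 of the 992 (3.33%), against 294 of all listed sites (3.45%). The triplet CTC around the modified position made up 24.5% of the sites called in both, 24.7% of those in cauline leaf only and 25.1% of those in rosetta leaf only.

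By region, 540 of the 682 sites called in both lay in coding sequence, with a median difference of 0.0109, 40 in 3′ UTRs (median 0.0127), 11 in 5′ UTRs and 61 in exons of noncoding genes. Of the 11 snRNA sites called in both, 4 were higher by at least 0.1 in rosetta leaf and 1 in cauline leaf. Transcripts of the photosystem and light harvesting list held 58 sites called in both leaves, of which 47 were higher in cauline leaf, at a median of 0.00733, against 442 of 682 and a median of 0.0112 for all sites called in both. The Rubisco and Calvin cycle list held 18 such sites, with a median of 0.00970.

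The genes that the naming rule took for their expression, which leaves out those named above for a site, held few called sites. Over 17 of these genes there were 29 sites called in at least 1 leaf, and sites called in neither are not counted here. Of the 21 in genes with higher expression in rosetta leaf, 14 were called in rosetta leaf only, 5 in both and 2 in cauline leaf only. All 8 sites in those of the 17 genes with higher expression in cauline leaf were called in cauline leaf only. In all genes higher in cauline leaf, 444 sites were called there only, 116 in both leaves and 38 in rosetta leaf only. In all genes higher in rosetta leaf, 422 were called there only, 101 in both leaves and 39 in cauline leaf only. The examples below are shown because they set a fraction beside a large expression difference.
CA1 (chr3:195814-195834, minus strand): acggtggcgtTggagcagcca
SEN1 (chr4:16945768-16945788, plus strand): tctgcagggtTgtgagagcgg
LHY (chr1:35598-35618, minus strand): tgagaattgcTcgggtgtttc
The CA1 site, called in both leaves, had the high fractions of 0.898 in cauline leaf and 0.809 in rosetta leaf. The SEN1 site was called in cauline leaf only, at 0.0791 against 0.0576. The LHY site was called in rosetta leaf only, although its fraction was 0.328 in cauline leaf and 0.186 in rosetta leaf.

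Over all genes the same relation between expression and calls was seen. Genes with sites called in cauline leaf only had a median log2 expression difference of 1.06 over 868 sites, those with sites called in rosetta leaf only had -0.80 over 961 sites, and those with sites called in both had -0.15 over 609 sites. Of the sites called in cauline leaf only, 51.2% lay in genes called higher in cauline leaf and 4.5% in genes called higher in rosetta leaf, and of those called in rosetta leaf only these shares were 4.00% and 43.9%. Calls need reads, so the expression of a gene and the calling of its sites cannot be told apart here.

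At sites called in both leaves, the fraction difference was lowest in genes higher in cauline leaf. The 116 such sites in genes higher in cauline leaf had a median fraction difference of -0.00374, with 50 positive and 65 negative. The 101 in genes higher in rosetta leaf had a median of 0.0230, with 75 positive (74.3%), and the 392 in genes called in neither direction had a median of 0.0125, with 275 positive (70.2%). The Spearman correlation between the expression difference and the fraction difference was -0.31 over these 609 sites, and 0.205 over the 2425 sites called in at least 1 leaf. Points of 1 gene share their expression value and all points share the same pooled libraries, so both correlations are descriptions. Most of the 2425 sites were called in 1 leaf only. Their calls went with both expression and fraction. The sites behind the -0.31 had passed the same filter in both leaves. What part the filter had in either correlation was not tested. TMT1 was higher in cauline leaf in expression and lower in fraction, and EGY2 the opposite.

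**Figure D5:**
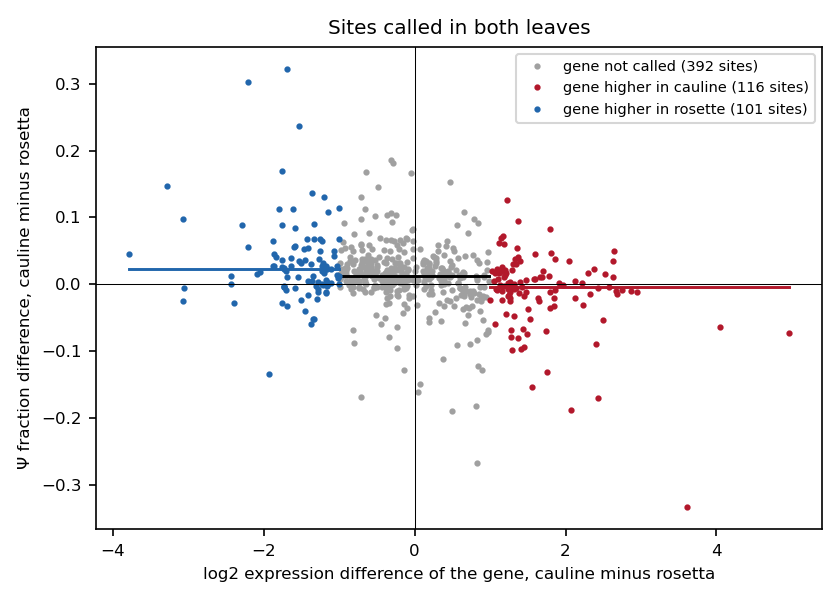
Difference in Ψ fraction, cauline minus rosetta leaf (y axis), against the difference in log2(TPM + 1) of the gene (x axis) for the 609 sites called in both leaves and lying in a tested gene. Of the sites in genes higher in rosetta leaf 75 of 101 lie above 0, of those in genes called in neither direction 275 of 392, and of those in genes higher in cauline leaf 50 of 116.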

How the data were processed

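Samples were grouped by their labels. The authors mapped BID-seq reads to TAIR10, combined the replicates of each tissue, calibrated the share of gapped reads and deposited 1 Ψ fraction per site and tissue, with a mark for sites that passed their P value filter, whose threshold is not given in the sources used here. Depth is unknown, so no interval is given. The authors also deposited TPM per gene in 16 columns. Neither the annotation behind these TPM values nor the kind of library behind each column is given in the sources used here. The calls of the 7 other tissues were not used.

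Expression was fitted in limma 3.58.1 (R 4.3.3) on log2(TPM + 1), a scale that understates changes of low genes, with 1 mean for each of the 9 tissues over all 16 columns (7 residual degrees of freedom), a trend on mean expression and two-sided Benjamini-Hochberg adjusted p-values. A call needed an adjusted p below 0.05 and a log2 difference of at least 1. The fit was run on simulated data in which the rosetta column was drawn with the spread of the paired columns. That setting cannot show whether the real rosetta column varies in this way. Sites were placed on TAIR10.1 by position and strand, where the letters of the deposited motif were found at every nuclear and chloroplast site and at none of the 98 mitochondrial sites, which were left unplaced. A reference entry was found for 99.1% of the gene IDs with expression values.

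Named genes were the 12 called nuclear genes with a symbol and the largest difference in each direction. Up to 2 called members of each list per direction were added. Named sites were the 6 called in both leaves, outside the mitochondrial genome, with the largest gain in each leaf. The 4 with the highest mean fraction were added, as were the sites in named genes called in at least 1 leaf. Other genes were chosen after their values were seen. The members and lists were chosen with earlier results of these data known. The alternatives were other pseudocounts, filters, column sets, scalings, call rules and site sets.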

Additional observations from a re-analysis of the deposited data

How the results depend on the processing

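The counts of 4555 and 2779 genes stayed within 1.5 times under every alternative but 1. With adjusted p alone and no minimum difference, 9160 genes were higher in cauline leaf and 6163 in rosetta leaf. The other alternatives gave 3473 to 4981 genes for cauline leaf and 2309 to 3740 for rosetta leaf, and leaving out a cauline leaf replicate gave 4458 to 4696 and 2749 to 2849. Of the 71 named genes the calls of 3 were lost after centring and that of CPC also without cauline leaf replicate 1, as stated beside each. No direction was reversed. Site counts depended on the rule. Sites higher in cauline leaf, 412 in the main set, numbered 715 at a minimum difference of 0.05, 177 at 0.2, 1031 over all sites with both values and 34 over sites called in both leaves. Sites higher in rosetta leaf, 259 in the main set, numbered 483, 108, 848 and 24 in the same order, and 171 where both fractions were above 0. The median difference was 0.00161 over all sites. No paired analysis was possible because rosetta leaf has 1 expression column and each leaf has 1 pooled fraction. The single rosetta column limits every expression result, and unknown depth limits every fraction.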

Other observations

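Several gene families, taken by their reference names, moved together, and these were chosen after their values were seen. They are not separate from the lists, since NAC6 is also among the senescence genes above. NAC genes with another form of symbol were not counted. All 9 tested genes of the ATG8 family, the ubiquitin-like proteins of the autophagosome, were called higher in cauline leaf, with log2 differences of 1.39 to 3.12, also after centring. ATG8E had 337 and 327 against 56.7 TPM. Of 45 WRKY transcription factors tested 37 were higher in cauline leaf and none in rosetta leaf (median 1.62), and of 43 NAC transcription factors 27 and none (median 1.58), among them NAC047 with 24.5 and 22.2 TPM in cauline leaf and listed at 0 in rosetta leaf. Glutathione transferases, which detoxify by conjugation, gave 22 of 40 higher in cauline leaf and 3 in rosetta leaf (median 1.44), or 21 and 5 after centring.

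In the other direction, 148 of 268 genes that RefSeq describes as ribosomal proteins, without naming an organelle, were higher in rosetta leaf and 13 in cauline leaf (median -1.09), or 174 and 5 after centring. Fasciclin-like arabinogalactan proteins of the cell surface gave 12 of 13 higher in rosetta leaf (median -2.74), for example FLA1 with 1.97 and 1.93 against 70.4 TPM. Expansins, which loosen cell walls, gave 9 of 17 higher in rosetta leaf and 3 in cauline leaf (median -1.57), for example EXPA5 with 7.28 and 6.29 against 167 TPM.

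In the 18S rRNA gene AT2G01010, rRNA left over in poly(A)-selected RNA, 4 sites were called in cauline leaf at fractions of 0.594 to 0.857 and listed at 0 in rosetta leaf. The gene had 1.50 and 1.09 TPM in cauline leaf and 0.489 TPM in rosetta leaf, and the part that few reads had in these zeros was not tested. The lowest fraction in the other tissues with a value was 0.313 at position 4708, 0.261 at 5339 and 0 at 5259 and 5309. Of the other 5 sites of this gene, 2 were higher in cauline leaf, at 0.940 against 0.827 (position 4813) and 0.650 against 0.592 (position 5272). The remaining 3 were higher in rosetta leaf, at 0.657 against 0.902 (position 4999), 0.740 against 0.893 (position 4826) and 0.936 against 0.984 (position 4798).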
